A study of Homo sapiens with 10 samples.

Results

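Zinc transporters and the zinc-sensing transcription factor MTF1 were followed in MiaPaCa-2, a human pancreatic tumour cell line, during exposure to a stellate cell supernatant. The 10 genes were SLC30A1, SLC30A5, SLC30A6, SLC30A7, SLC30A9, SLC39A1, SLC39A6, SLC39A10, SLC39A14 and MTF1, chosen by name from 19775 genes with a single platform symbol. They were covered by 29 of the 54675 probe sets of the Affymetrix U133 Plus 2.0 array. The 8 treated arrays came from cells harvested 1, 2, 3, 4, 5, 6, 7 and 24 h after addition of supernatant from pancreatic stellate cells, fibroblast-like cells of the tumour surroundings, which had themselves first been given a pool of culture supernatants of 8 tumour cell lines. The 2 control arrays were of the same line at 0 h and 24 h. The labels describe the timing both as hourly harvests and as additions made at set hours ahead of harvest, so whether the cells were harvested together is not settled, nor which control shares the time in culture of a treated array. The labels do not say what medium the controls received, and they name no separate cultures behind the arrays, so each p-value here reflects only how far these 10 arrays vary, which may be technical.

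Cells hold cytosolic zinc at a low free level with 2 families of transporters. SLC30 proteins (ZnT) move zinc out of the cytosol, to the outside or into organelles, and SLC39 proteins (ZIP) bring it in. When zinc rises, MTF1 binds metal response elements in promoters and switches on metallothionein genes, whose products bind zinc, and SLC30A1, which encodes the exporter of the plasma membrane.

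RefSeq promoters (GRCh38.p14, 250 bases before to 50 after the start) were found for 9 of the 10 genes and are printed here for SLC30A1, the one of the 10 with the largest change against the controls, for SLC39A10, which fell, and for MT2A, a metallothionein used for comparison. Capitals mark the core letters of the metal response element, TGCACNC or TGCGCNC, on either strand.
SLC30A1, chr1:211579112-211579411, minus strand: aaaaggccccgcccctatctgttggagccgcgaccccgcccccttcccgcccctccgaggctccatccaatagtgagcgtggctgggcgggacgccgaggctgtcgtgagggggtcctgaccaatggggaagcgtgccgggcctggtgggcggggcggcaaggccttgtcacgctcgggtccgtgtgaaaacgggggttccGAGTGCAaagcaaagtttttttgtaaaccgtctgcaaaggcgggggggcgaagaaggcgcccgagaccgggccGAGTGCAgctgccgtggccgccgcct
SLC39A10, chr2:195656976-195657275, plus strand: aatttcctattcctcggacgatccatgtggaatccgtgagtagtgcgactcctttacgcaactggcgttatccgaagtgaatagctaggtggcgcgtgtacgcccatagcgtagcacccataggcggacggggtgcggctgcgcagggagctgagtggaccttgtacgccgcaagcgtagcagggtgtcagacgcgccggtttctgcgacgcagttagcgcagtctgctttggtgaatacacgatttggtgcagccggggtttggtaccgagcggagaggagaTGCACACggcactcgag
MT2A, chr16:56608334-56608633, plus strand: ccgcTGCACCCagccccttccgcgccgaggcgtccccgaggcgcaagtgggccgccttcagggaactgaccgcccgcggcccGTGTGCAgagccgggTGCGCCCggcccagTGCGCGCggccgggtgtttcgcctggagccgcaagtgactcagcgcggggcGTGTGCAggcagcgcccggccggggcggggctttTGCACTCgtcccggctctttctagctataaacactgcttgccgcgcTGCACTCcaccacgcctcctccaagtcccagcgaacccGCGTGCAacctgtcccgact

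The SLC30A1 window held 2 matches, both on the strand opposite to the gene, 49 to 43 bases before the start and at bases 25 to 31 after it. MT2A held 8 matches, and the SLC39A10 window shown held 1, at bases 34 to 40 after the start. RefSeq gives SLC39A10 a second start whose window held 0. Of all 35116 promoter windows of this length, 29.6% held at least 1 match, 8.6% at least 2 and 0.601% at least 4. SLC30A6, SLC39A1 and SLC39A6 held 1 match each, with 0 in another SLC39A1 window, and SLC30A5, SLC30A7, SLC30A9 and MTF1 held 0. A match in these letters is a description of the sequence and not a measured binding site.

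Array medians of the log2 intensities were alike, at 5.49 to 5.61 in treated cells and 5.51 to 5.55 in controls. The treated 2 h array was narrower than the rest. Its lower and upper quartiles were 4.12 and 7.50, against 3.97 to 4.06 and 7.63 to 7.76 on the other arrays. Of 6 genes listed as marks of the tumour line, KRT8, KRT18, KRT19 and VIM had means over the arrays at or above log2 5.79, the level used as the filter on mean expression, and EPCAM and CDH1 were below it. Of 10 stellate cell or fibroblast genes, 5 lay at or above it, COL1A2 among them at 11.31 to 11.94 in treated arrays and 12.16 to 12.23 in controls, and DCN, LUM, PDGFRB, FAP and POSTN lay below. The log2 values of these 10 genes summed to 60.4 to 63.7 on treated arrays and 62.3 to 62.7 on controls. Leukocyte genes summed to 14.8 to 16.6 on treated arrays and 16.7 on both controls, with CD14 at 5.58 to 7.29 in treated arrays and 7.63 to 7.72 in controls and PTPRC below the filter level. Endothelial genes summed to 16.1 to 18.8 on treated arrays and 17.6 to 18.6 on controls, with CDH5 at 5.45 to 7.71 in treated arrays and 7.36 to 7.85 in controls and VWF below the filter level. The part of other cells in the changes below was not tested. CDKN2A, known to be deleted in this line, lay at 6.66 to 7.30 in treated arrays and 6.91 to 7.27 in controls, so a value above the filter level does not show that a gene is expressed.

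SLC30A1, the zinc exporter of the plasma membrane, was high from the first hour and fell back within 7 h. Its brightest probe set, 212907_at, read 13.08, 13.37 and 13.13 on the log2 scale at 1, 2 and 3 h, and then 12.46, 11.37, 10.51 and 9.33 at 4, 5, 6 and 7 h. It read 10.06 at 24 h of exposure, against 8.58 in the 0 h control and 10.37 in the 24 h control. The 3 earliest arrays were the highest and lay above both controls, and the arrays of 7 and 24 h lay between the controls. In bulk samples a change in RNA per cell and a change in the number of cells that hold it cannot be told apart.

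**Figure D1:**
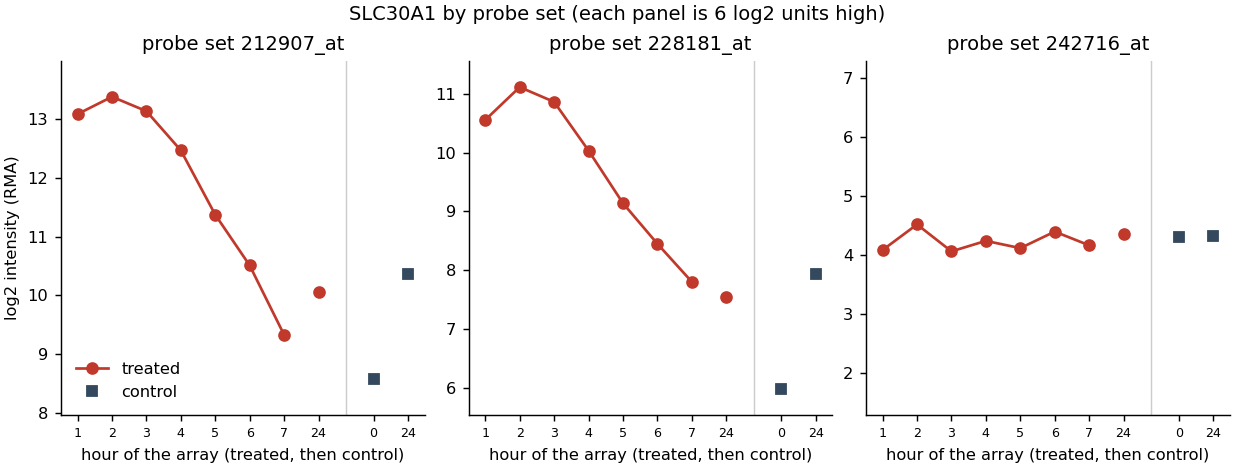
Log2 intensity of the 3 SLC30A1 probe sets on each array, treated arrays (circles, hours 1 to 7 joined, 24 h apart) to the left of the controls (squares, 0 and 24 h), with 1 array at each point. Probe sets 212907_at and 228181_at peak at 2 h and decline to 7 h, while 242716_at stays between 4.06 and 4.51.

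The second probe set, 228181_at, gave a like course to 7 h at its own scale, though its treated 24 h array lay below the 7 h array and that of 212907_at above it. It read 10.55, 11.11 and 10.86 at 1, 2 and 3 h, 10.03, 9.14, 8.45 and 7.81 at 4 to 7 h and 7.54 at 24 h of exposure, against 5.99 in the 0 h control and 7.93 in the 24 h control. Across the 10 arrays its Pearson correlation with 212907_at was 0.98. The third, 242716_at, read 4.06 to 4.51 in treated arrays and 4.30 and 4.32 in the controls, below the filter level for probe sets of 4.95, and its correlation with 212907_at was -0.17. The SLC30A1 results below come from the first 2 probe sets, and the third was not tested on its own. It entered only the alternative in which the probe sets of a gene were averaged. Where the probe sets lie in the transcript is not given in the files.

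At hours 1 to 3 SLC30A1 averaged 13.19 ± 0.16 (SD, n = 3), against 9.48 in the 2 controls, a rise of 3.72 ± 0.76 (standard error), or 13.1-fold (limma adjusted p = 0.0426). The size differed with the control. The 3 arrays averaged 24.4-fold over the 0 h control and 7.07-fold over the 24 h control, since the controls themselves were 1.79 log2 units apart, the 24 h control higher. Probe set 228181_at rose by 3.88 ± 0.62 (limma adjusted p = 0.0174 over all 32805 probe sets tested), 28.8-fold over the 0 h control and 7.51-fold over the 24 h control, and its controls were 1.94 apart. Its 0 h control, at 5.99, lay below the 6.66 to 7.30 of the deleted CDKN2A and may be background. The 28.8-fold and the 1.94 are therefore uncertain in size. Without the 0 h control the change of 212907_at was 2.82 (limma adjusted p = 0.246), and without the 2 h array it was 3.63 (adjusted p = 0.15). Leaving out the array of 1, 3, 5 or 6 h likewise ended the call, at adjusted p of 0.0509 to 0.0719, as did an intensity trend with a robust prior (adjusted p = 0.0676).

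The later decline was tested on treated arrays alone. From 1 to 7 h SLC30A1 fell by 0.67 ± 0.08 log2 units per hour over 7 arrays (limma adjusted p = 0.0018), and 228181_at fell by 0.55 ± 0.07 (adjusted p = 0.00393). The call for SLC30A1 was kept in all 14 alternatives, with slopes from -0.83 to -0.40 and adjusted p from 0.000701 to 0.0107. Among them, the alternative with probe sets averaged per gene took in all 3 probe sets, and the others used 212907_at. Of the 10 genes 2 fell along the hours, SLC30A1 and SLC39A14, and 0 rose, where 26.7% of all genes were called and 10.1% fell. Between 1 and 2 h the level of 212907_at rose by 0.29, and each later step was downward, at -0.24, -0.67, -1.09, -0.86 and -1.18. Its quadratic term, -0.134 ± 0.0172 per hour squared, passed narrowly (limma adjusted p = 0.0447), the only one of the 10 to do so, where 0.27% of all genes did and 0.177% had a negative term. This call ended in 7 of 14 alternatives, and for 228181_at the term of -0.10 ± 0.03 did not pass (adjusted p = 0.132). From its 2 h peak to 7 h the signal fell by 4.04, a ratio of 16.4 on the linear scale.

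Between the windows SLC30A1 was lower at hours 4 to 7, at 10.92 ± 1.33 (SD, n = 4), than at hours 1 to 3, a change of -2.27 ± 0.64 (limma adjusted p = 0.0382). It was the only one of the 10 genes past the threshold there, where 17.4% of all genes passed and 5.18% were lower (1449 genes higher and 615 lower, against 1137 and 1050 under cyclic loess scaling). This call was lost when the array of 1, 2, 3, 5, 6 or 7 h was left out (adjusted p between 0.0626 and 0.14) and under the trend and robust prior (adjusted p = 0.0675). For 228181_at the change was -1.98 ± 0.52 (limma adjusted p = 0.0377). Against the controls, hours 4 to 7 were 1.44 ± 0.72 higher, which did not pass (adjusted p = 0.215), and 228181_at was 1.90 ± 0.59 higher (adjusted p = 0.0786). The mean of these 4 arrays exceeded the control of 0 h by 2.34 and that of 24 h by 0.55. Array by array, with no test, SLC30A1 at 5 h exceeded the control of 0 h by 2.79 and that of 24 h by 1.00, and at 7 h these differences were 0.75 and -1.04. At 24 h of exposure they were 1.48 and -0.31.

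**Figure D2:**
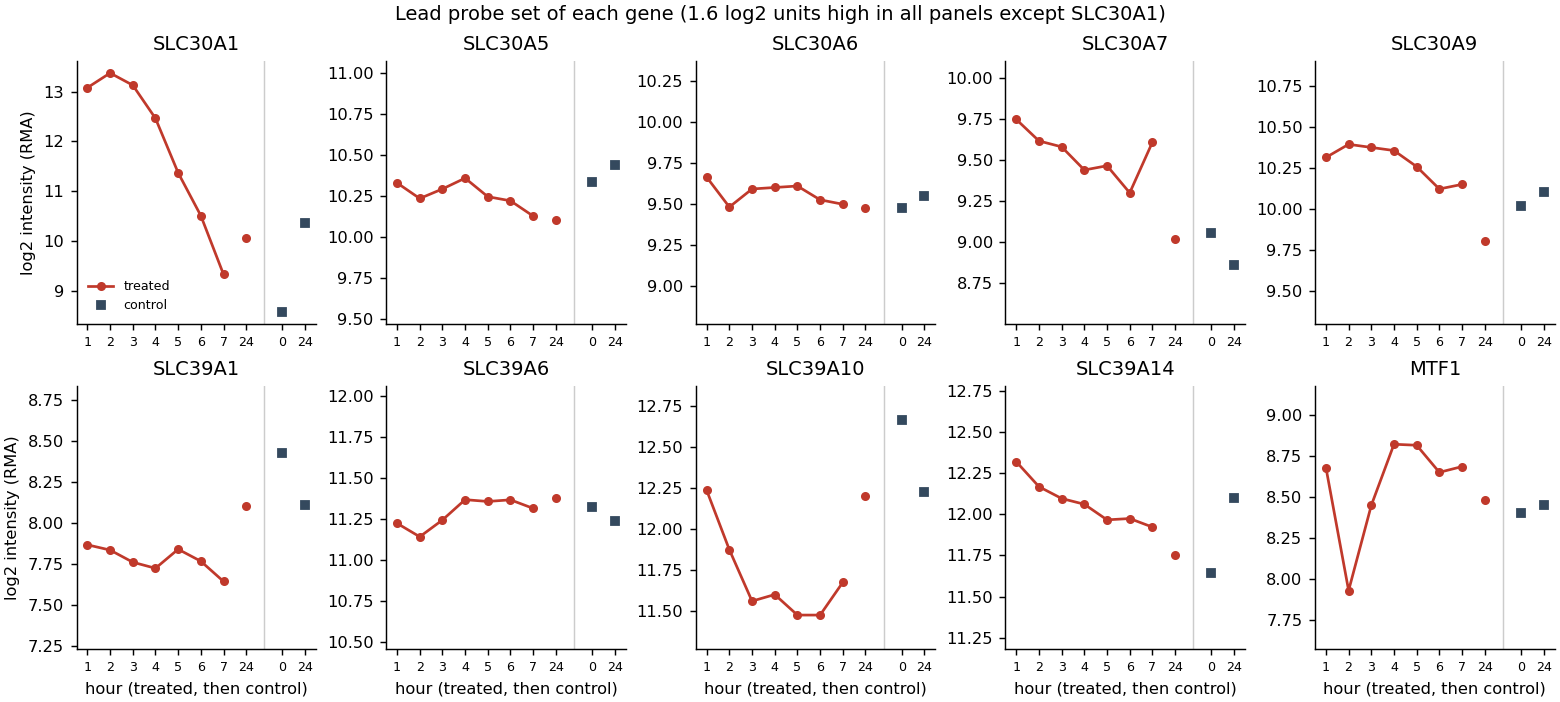
Log2 intensity of the lead probe set of each of the 10 genes on each array, treated arrays (circles, hours 1 to 7 joined, 24 h apart) to the left of the controls (squares, 0 and 24 h). SLC30A1 spans 4.79 log2 units, and the other 9 genes between 0.19 and 1.19.

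With all 8 treated arrays set against the 2 controls in limma, 0 of the 10 genes passed the threshold, where 0.0506% of all 11865 genes were called. The changes of SLC30A7, SLC39A1 and SLC39A10 were 0.52 ± 0.16, -0.45 ± 0.12 and -0.68 ± 0.22 (limma adjusted p = 0.221, 0.18 and 0.229). SLC30A1 stood at 2.19 ± 1.03 (limma adjusted p = 0.382). At hours 1 to 3, 2 of the 10 rose, SLC30A1 and SLC30A7, and 0 fell, where 1.96% of all genes were called, 0.843% higher and 1.12% lower (100 and 133 genes, against 169 and 124 under cyclic loess scaling). At hours 4 to 7, 1 of the 10 rose, SLC30A7, and 2 fell, SLC39A1 and SLC39A10, where 13.8% of all genes were called, 7.6% higher and 6.19% lower. The lead probe sets of 3 genes lay above both controls on every array of hours 1 to 3 and those of 2 below, where 15.9% of all genes lay above, 19.8% below and 35.7% either way. For hours 4 to 7 the counts were likewise 3 and 2, where 20.1% of all genes lay above, 19.1% below and 39.3% either way. The medians of the 10 changes were 0.00 and 0.09 in these windows, beside -0.04 and -0.01 over all genes.

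**Figure D3:**
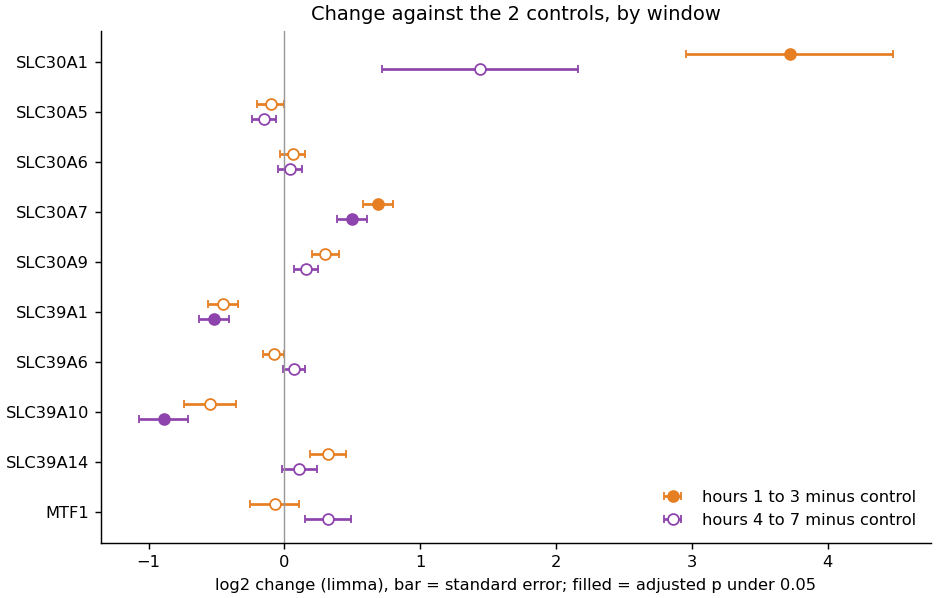
Log2 change of each gene's lead probe set at hours 1 to 3 and hours 4 to 7 against the 2 controls, as limma estimates with standard errors, filled where the adjusted p is under 0.05. SLC30A1 and SLC30A7 are filled at hours 1 to 3, and SLC30A7, SLC39A1 and SLC39A10 at hours 4 to 7.

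SLC30A7, which carries zinc into the early secretory pathway, where enzymes such as alkaline phosphatase take it up, rose in both windows. Its lead probe set, 226217_at, read 9.75, 9.62, 9.58, 9.44, 9.47, 9.30 and 9.61 from 1 to 7 h and 9.02 at 24 h of exposure, against 9.05 in the 0 h control and 8.86 in the 24 h control. All 7 arrays of the first 7 h lay above both controls, and the 24 h array lay between them. The rise was 0.69 ± 0.11 at hours 1 to 3 (limma adjusted p = 0.0193), or 1.61-fold, and 0.50 ± 0.11 at hours 4 to 7 (adjusted p = 0.017). Neither the difference between windows (adjusted p = 0.168) nor the slope (adjusted p = 0.213) passed.

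Its probe sets differed in their course. For 226601_at all 8 treated arrays, at 8.99 to 9.51, lay above the controls at 8.96 and 8.84. The lead probe sets of 3.89% of all genes were so placed. It rose by 0.52 ± 0.11 at hours 4 to 7 (limma adjusted p = 0.0235), with 0.38 ± 0.12 at hours 1 to 3 (adjusted p = 0.103). The dim 239596_at went the other way early, at 5.20 to 5.48 at hours 1 to 3, below the controls at 5.85 and 5.87 (-0.51 ± 0.13, adjusted p = 0.0696), and it rose between the windows by 0.50 ± 0.11 (adjusted p = 0.0247). All its values, at 5.20 to 6.00, lay below the 6.66 to 7.30 of the deleted CDKN2A and may be background. With the mean of the 3 SLC30A7 probe sets, 239596_at included, the early change was 0.19 (adjusted p = 0.268). The early call also ended without the 0 h control (adjusted p = 0.0646) or the 2 h array (adjusted p = 0.0728), and the later one without the 24 h control (0.40, adjusted p = 0.079).

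SLC30A5 and SLC30A6, which form a pair that also loads zinc into the early secretory pathway, passed the threshold in none of the 6 comparisons. The lead probe set of SLC30A5 read 10.10 to 10.36 in treated arrays, against 10.34 in the 0 h control and 10.44 in the 24 h control, with changes of -0.10 ± 0.10 and -0.15 ± 0.09 in the early and later windows. Of its 5 probe sets, 1555334_s_at lay below both controls on all 8 treated arrays, at 8.65 to 8.85 against 8.89 and 8.99. The lead probe sets of 6.09% of all genes were so placed, and its change did not pass in either window (limma adjusted p = 0.207 and 0.47). Another, 243166_at, went the other way early, at 6.45 to 6.76 at hours 1 to 3 against 6.43 and 6.10 in the controls (0.34 ± 0.14, adjusted p = 0.185). Its values over the arrays, 5.95 to 6.76, lay at or below the 6.66 to 7.30 of the deleted CDKN2A and may be background. SLC30A6 read 9.48 to 9.67 in treated arrays, against 9.48 and 9.55 in the controls, a range of 0.19 over all 10 arrays. Its changes were 0.06 ± 0.09 and 0.04 ± 0.09.

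SLC30A9, linked to zinc export from mitochondria, gave opposite courses in its 2 probe sets and passed in none of the 6 comparisons. Under cyclic loess scaling its slope did pass, at -0.06 per hour (limma adjusted p = 0.0441). The lead, 202614_at, read 10.12 to 10.39 from 1 to 7 h and 9.81 at 24 h, against 10.02 in the 0 h control and 10.10 in the 24 h control. Its 7 hourly arrays lay above both controls, but the change of 0.30 ± 0.10 at hours 1 to 3 did not pass (limma adjusted p = 0.114). Probe set 229500_at read 7.29 to 7.51 from 1 to 7 h and 8.17 at 24 h, against 8.23 in the 0 h control and 7.44 in the 24 h control, and its correlation with the lead was -0.78. On this probe set the treated 24 h array and the 0 h control were the high arrays, and the controls differed by -0.79, 24 h minus 0 h.

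SLC39A10, an importer of the plasma membrane whose mouse counterpart is repressed by MTF1 under zinc, fell at hours 4 to 7. Its single probe set read 12.24, 11.88, 11.56, 11.60, 11.48, 11.48 and 11.68 from 1 to 7 h and 12.20 at 24 h of exposure, against 12.67 in the 0 h control and 12.22 in the 24 h control. The arrays from 2 to 7 h lay below both controls, while those of 1 and 24 h lay within 0.02 of the 24 h control. At hours 4 to 7 it fell by 0.89 ± 0.18 (limma adjusted p = 0.0139), and its early change of -0.55 ± 0.19 did not pass (adjusted p = 0.126). The mean of hours 4 to 7 differed by -1.11 from the control of 0 h and by -0.67 from that of 24 h, and without the 0 h control the call ended (adjusted p = 0.0737). Its quadratic term was positive, 0.0481 ± 0.0095 per hour squared, and did not pass (adjusted p = 0.0806).

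SLC39A1, an importer found in most cell types, was lower on every treated array than on both controls. Its single probe set read 7.87, 7.83, 7.76, 7.72, 7.84, 7.77 and 7.64 from 1 to 7 h and 8.10 at 24 h, against 8.42 in the 0 h control and 8.11 in the 24 h control. It was the only lead probe set of the 10 whose 8 treated arrays all lay on one side of both controls, a placing seen in 9.98% of all genes and below in 6.09%, and at 24 h the gap was under 0.01. It fell by 0.52 ± 0.11 at hours 4 to 7 (limma adjusted p = 0.0139), and its change at hours 1 to 3 was -0.45 ± 0.11 (adjusted p = 0.0685). Without the 0 h control the later change was -0.37 (adjusted p = 0.0642). SLC39A1 and SLC39A10 had a correlation of 0.87 over the 10 arrays.

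SLC39A14, an importer that also carries iron and manganese and that interleukin-6 induces in mouse liver, was highest at 1 h on its lead probe set only. Its lead probe set, 212110_at, read 12.32, 12.17, 12.10, 12.06, 11.97, 11.98 and 11.92 from 1 to 7 h and 11.75 at 24 h, against 11.64 in the 0 h control and 12.10 in the 24 h control. The treated arrays overlapped the controls, which were 0.46 apart. Its slope of -0.06 ± 0.02 log2 units per hour passed (limma adjusted p = 0.0211), as did 26.7% of all genes. That call ended in 6 of 13 alternatives, and its change against the controls did not pass at hours 1 to 3 (0.32 ± 0.13, adjusted p = 0.177) or at hours 4 to 7 (0.11 ± 0.13, adjusted p = 0.61). The probe set 1555434_a_at had a correlation of 0.15 with the lead. It read 8.6 at 1 h and 9.2 at 4 h, its highest of hours 1 to 7. Its slope of 0.01 ± 0.04 per hour did not pass (limma adjusted p = 0.894). The probe set 1555433_at, at 3.00 to 3.52 in treated arrays, lay below the filter.

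SLC39A6, an importer of the same subfamily as SLC39A10, spanned 0.24 log2 units over the 10 arrays and passed in no comparison. It read 11.14 to 11.38 in treated arrays, against 11.33 in the 0 h control and 11.24 in the 24 h control. Its 4 probe sets ran alike, with correlations of 0.81 to 0.85 with the lead and all of them lowest at 2 h among the hours 1 to 7. The 2 h array was also the one narrower than the rest, and its part in this likeness was not tested. Changes against the controls were -0.08 ± 0.08 and 0.07 ± 0.08 in the early and later windows.

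MTF1 mRNA passed the threshold in none of the 6 comparisons. Its lead probe set, 227150_at, read 8.68, 7.93, 8.45, 8.82, 8.82, 8.65 and 8.69 from 1 to 7 h and 8.48 at 24 h, against 8.40 in the 0 h control and 8.45 in the 24 h control. The 2 h array was low and the 4 arrays of hours 4 to 7 lay above both controls, but the change there was 0.32 ± 0.17 (limma adjusted p = 0.251). The early change, -0.07 ± 0.18, was near 0, and its sign turned under cyclic loess scaling, at 0.01. The probe set 205322_s_at followed the lead with a correlation of 0.77, while 205323_s_at had a correlation of -0.05. All 8 treated arrays of 205323_s_at, at 7.95 to 8.51, lay above the controls at 7.81 and 7.93. The lead probe sets of 3.89% of all genes were so placed. The change of 205323_s_at at hours 1 to 3 was 0.44 ± 0.17 (limma adjusted p = 0.162). MTF1 is regulated by zinc binding to the protein, which these arrays do not measure.

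At 24 h of exposure the single-array differences of the 10 genes from the 24 h control ran from -0.35 to 0.16, with a median of -0.05 and 0 genes apart by 1 log2 unit or more, where 3.26% of all genes were. Against the 0 h control they ran from -0.46 to 1.48, with SLC30A1 the 1 gene apart by that size (0.784% of all genes). Between the controls SLC30A1 was also the 1 gene of the 10 that far apart (2.33% of all genes). SLC39A14 differed by 0.46 and SLC39A10 by -0.44 between them, 24 h minus 0 h.

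Metallothionein genes, other known targets of MTF1, rose in both windows. Of 9 measured, 7 rose at hours 1 to 3 and the same 7 at hours 4 to 7, with medians of 1.01 and 1.13, where 0.843% of all genes were higher early and 7.6% later. Between the windows 0 of the 9 passed, where 17.4% of all genes did. MT1M read 9.31, 10.93, 11.51, 11.44, 11.62, 11.48 and 11.60 from 1 to 7 h and 7.69 at 24 h of exposure, against 4.12 in the 0 h control and 5.06 in the 24 h control. Its slope of 0.29 ± 0.09 per hour passed (limma adjusted p = 0.0437), the only 1 of the 9 to do so, where 16.6% of all genes rose. Most of that rise lay between 1 and 3 h. From 3 to 7 h MT1M stayed at 11.44 to 11.62, while SLC30A1 fell. MT2A, at 14.30 to 14.57 from 1 to 7 h against 13.70 and 13.88 in the controls, lay close to the highest value of any probe set, 14.74 to 14.79 on treated arrays, so little of the scale was left above it. In the same hours MT1E reached 14.54 and MT1X 14.38, so this limit may hold for them too. The MT1 genes are near-identical copies whose probe sets may share signal. MT3 and MT4 did not pass in either window. Their highest values, 6.35 and 6.37, lay below the 6.66 to 7.30 of the deleted CDKN2A and may be background.

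**Figure D4:**
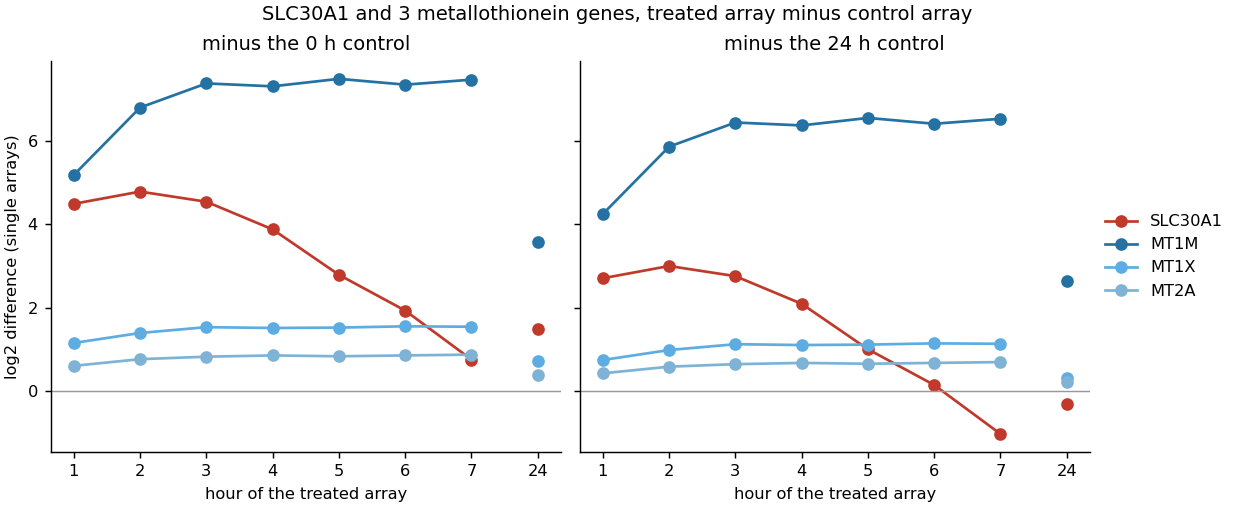
Log2 difference of each treated array from the control of 0 h (left) and that of 24 h (right) for SLC30A1 and the metallothionein genes MT1M, MT1X and MT2A, with 1 array at each point. The MT1M points lie highest of the 4 genes at every hour in both panels, while SLC30A1 declines to differences of 0.75 (left) and -1.04 (right) at 7 h.

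None of the other zinc transporters passed against the controls. Of 5 further SLC30 genes 3 were tested, and of 10 further SLC39 genes 8 were. In both windows 0 of these 11 passed, where 1.96% of all genes did at hours 1 to 3 and 13.8% at hours 4 to 7. The smallest p among the SLC39 genes belonged early to SLC39A7, which releases zinc from the endoplasmic reticulum (-0.59 ± 0.20, limma adjusted p = 0.121), and later to SLC39A4, the intestinal importer (0.35 ± 0.11, adjusted p = 0.0552). SLC39A8, an importer of the plasma membrane, followed in the later window (-0.84 ± 0.26, adjusted p = 0.0561). SLC39A7 read 6.48 to 7.64 over the arrays and SLC39A8 5.59 to 7.06. Both overlapped the deleted CDKN2A, at 6.66 to 7.30, so these values do not show that either gene is expressed. Between the windows SLC39A7 rose by 0.61 ± 0.17 (limma adjusted p = 0.0349) and SLC39A3 by 0.35 ± 0.09 (adjusted p = 0.0348), where 12.2% of all genes were higher. Among the 3 SLC30 genes, SLC30A3 had the smallest p early (0.30 ± 0.16, adjusted p = 0.279).

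Transporters and carriers of other metals, mostly copper and iron, were set beside them. Of 12 tested, 0 passed at hours 1 to 3, where 1.96% of all genes did, and 3 rose at hours 4 to 7, where 7.6% were higher. SLC25A37, the mitochondrial iron importer, rose by 1.01 ± 0.20 (limma adjusted p = 0.0138), SLC11A2, the importer of ferrous iron, by 0.46 ± 0.13 (adjusted p = 0.041) and SLC31A2, a copper transporter of vesicles, by 0.37 ± 0.11 (adjusted p = 0.0473). Along the hours 4 of the 12 rose, where 16.6% of all genes did. These were the same 3, by 0.11 to 0.19 per hour (adjusted p from 0.00374 to 0.0127), and TFRC, the transferrin receptor, by 0.09 ± 0.02 per hour (adjusted p = 0.017). Of 7 tested genes linked to MTF1 or to metal stress, 1 rose in each window, where 0.843% of all genes were higher early and 7.6% later. This was HMOX1, haem oxygenase, at hours 1 to 3 (3.71 ± 0.71, limma adjusted p = 0.0347) and at hours 4 to 7 (2.80 ± 0.68, adjusted p = 0.0254). HMOX1 was highest at 3 h, at 12.86, and read 9.80 at 7 h. SP1, a general activator, fell between the windows by 0.35 ± 0.11 (limma adjusted p = 0.0485), where 5.18% of all genes were lower.

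The genes whose course was most like that of SLC30A1 were sought by Pearson correlation over the 10 arrays among the 11865 genes tested, as a description, since the arrays share a time order. The 10 highest were FRMD8 (0.973), GNG12 (0.969), BLOC1S6 (0.962), SIK1 (0.959), ZBTB2, CCNY, ZNF189 and FAM131B-AS2 (0.953 each), GEM (0.952) and TJP1 (0.947). HMOX1 stood at 0.86, SLC39A14 at 0.83 and SLC30A9 at 0.81. The 7 metallothionein genes that rose stood between 0.54 and 0.60, and MTF1 at -0.17. For SLC39A14 the nearest were CREM (0.978), SFN, TMEM106B, KLHDC7B and ATF5 (0.951). For SLC39A10 they were DNAH14 (0.983), ERBB3, PSMD5, ANK3 and TMUB2 (0.971), and for MTF1 they were MIOS (0.980), PPP3CC, RNF135, USP31 and ELF1 (0.946). MTF1 and each of its nearest genes read lowest on the treated 2 h array, the one narrower than the rest. The part of that array in these correlations was not tested.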

How the data were processed

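RNA of MiaPaCa-2 cells was hybridised to 10 arrays, 8 treated and 2 control. The deposited values are log2 intensities per probe set, summarised by RMA according to the submitters' processing notes, with no version. The authors' filtered table of 7622 probe sets holds the same values and served as an alternative.

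Of 54675 probe sets, 41097 carried a single gene symbol on the platform, 1801 several symbols and 11777 no symbol. Each gene was read from its brightest probe set over the 10 arrays, and 11865 genes reached the filter on mean level (40th percentile, log2 5.79). All 10 lead probe sets passed, and 26 of the 29 probe sets passed a like filter. Two-sided tests used lmFit and eBayes (limma 3.58.1, R 4.3.3): treated against control (10 arrays), hours 1 to 3 and 4 to 7 against control and each other (9 arrays, without treated 24 h), and slope and quadratic in hour (7 arrays). Benjamini-Hochberg adjustment ran over all genes, or over 32805 probe sets where each stood alone, with a threshold of 0.05. Within a window, spread and change over the hours are mixed, and the number of arrays limits precision. The fits were also run on simulated data with independent noise and no shift of a whole array. No result here rests on that run.

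The genes, lists and tests were chosen with earlier results of these data known. Named were the 10 genes, genes of other lists past the threshold or with the smallest p, and the nearest by correlation; HMOX1 values by hour, 239596_at and 1555334_s_at were picked out after their values were seen. A planned comparison of protein sequences was not made. Tables and plots came from Python 3.11.15 (pandas 2.3.3, numpy 2.4.6, matplotlib 3.10.9).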

Additional observations from a re-analysis of the deposited data

Results flagged for a closer look

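On the lead probe set of SLC30A9 the treated 24 h array, at 9.81, stood apart from the other 7 treated arrays, which lay between 10.12 and 10.39. On the lead probe set of MTF1 the treated 2 h array, at 7.93, stood apart from the other 7, at 8.45 to 8.82. Of 20 groups of arrays examined by Dixon's criterion 2 were marked, and chance marks about 1 in 20. The arrays of these groups differ in hour and are not exact replicates. SLC30A1 was lower at hours 4 to 7 than at hours 1 to 3, with a change of -2.27, a difference between the windows that passed its own test in limma (adjusted p = 0.0382).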

How the results depend on the processing

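No paired analysis was possible because the labels give treated and control arrays no shared replicate numbers. Of 799 comparisons of single genes under other settings, 737 kept their direction and side of the threshold, 33 lost the call, 14 gained it and 15 changed sign. Most of the 799 had no call to lose. SLC30A1 lost its call in 7 of 16 alternatives at hours 1 to 3, 7 of 16 between windows and 7 of 14 for the quadratic term. SLC39A14 lost its slope call in 6 of 13 and SLC30A7 its early call in 3 of 16. The later calls of SLC30A7, SLC39A1 and SLC39A10 were each lost in 1. The slope of SLC30A1 kept its call throughout.

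With all treated arrays against control, leaving out both 24 h arrays gave 1 of the 10 genes (SLC39A1, -0.65) and 454 of 11865 genes, against 6. The count was 16 with probe sets averaged per gene, 15 of 32805 single probe sets, 36 of the 4538 genes of the filtered table and 1 to 115 with 1 array left out. At hours 1 to 3, 1 of the 10 passed with probe-set means and 1 with the trend and robust prior. With 1 array left out 0 to 5 passed, 0 without the 2 h array or the 0 h control and 5 without the 24 h control, where SLC39A1, SLC39A10 and SLC39A14 joined. Against 233 of 11865 genes, 760 of 32805 probe sets passed, 358 of 4538 genes in the filtered table, and 23 to 1823 genes with 1 array left out. Without the 2 h array 31 genes passed. At hours 4 to 7 leaving out 1 array gave 1 to 3 of the 10 and 740 to 1754 genes, against 1636. Between windows 2 passed over probe sets and 0 with the trend and robust prior, with 3570 probe sets called against 2064 genes. Leaving out 1 array gave 0 to 1 of the 10 and 3 to 2886 genes, with 3 without the 2 h array.

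For the slope 1 of the 10 passed with no filter, with probe-set means and over probe sets, and 1 of the 3 that the filtered table holds. SLC30A9 gained the call under cyclic loess (-0.06, limma adjusted p = 0.0441) and SLC39A10 under the trend and robust prior (-0.09, adjusted p = 0.0494). With 1 array left out 1 to 3 passed, with 1611 to 3034 genes against 3170. For the quadratic term 0 of the 10 passed with no filter and with probe-set means, and 2 with a 60th percentile filter, cyclic loess, and the trend and robust prior. Its gene counts were 4 (of 19775), 72, 96 (of 7910), 163 and 435 in that order, 429 of 32805 probe sets and 454 of 4538 genes in the filtered table, against 32 of 11865. Leaving out 1 array gave 0 to 2 and 0 to 1922. At a size of 1.5, 0 of the 10 were apart between treated 24 h and control 0 h.

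Some small changes turned sign. With probe sets averaged per gene, SLC30A9 was -0.11 and SLC39A6 -0.01 for all treated arrays, SLC30A5 0.02, SLC30A9 -0.08 and MTF1 0.08 at hours 1 to 3, SLC30A9 -0.17 at hours 4 to 7, and SLC30A7 0.14 between windows and 0.04 per hour. MTF1 at hours 1 to 3 was 0.01 under cyclic loess, and SLC39A6 was -0.04 without both 24 h arrays. With 1 array left out, SLC39A6 ran from -0.03 to 0.06 and SLC39A14 from -0.07 to 0.39 for all treated arrays, MTF1 from -0.24 to 0.14 at hours 1 to 3, SLC39A14 from -0.12 to 0.34 at hours 4 to 7 and SLC30A6 from -0.07 to 0.02 between windows.

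None of these passed the threshold in the setting first used. The cause of these changes was not tested. Each hour has 1 array, so spread within an hour is unknown.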
